A study of Rattus norvegicus with 33 samples.

Results

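Paralysed soleus that had received 7 days of electrical stimulation (ES) was compared with paralysed soleus that had received none. The groups were SCI-ES 7 days and SCI, each of 3 arrays from 3 animals, which are 6 of the 33 arrays of the series. Every row of the value table with 1 gene symbol was used, which gave 15310 of 29214 rows and 14506 genes, of which 14456 passed a minimum mean of 3 on the log2 scale. Animals of both groups were female Wistar rats whose spinal cord was cut completely between the 9th and the 10th vertebrae at 9 weeks of age, and both had the tendon of the left gastrocnemius cut 14 weeks later. The SCI-ES 7 days animals had a stimulator implanted in that operation, and from 16 weeks after transection it made soleus, plantaris and tibialis anterior contract against each other for 1 h per day at 1.5 V and 40 Hz, with 2 s of stimulation followed by 18 s of rest. The SCI animals had the same operations without a stimulator, and their soleus was taken 21 days after the sham implantation. Both groups were thus at the same time since surgery, and the comparison holds ES together with the implanted device, which cannot be told apart here. For context, values are also given for transected animals after 1 and 3 days of ES (SCI-ES 1 day, SCI-ES 3 days), for animals that had a laminectomy only (Sham-SCI), and for intact rats 7 days after gastrocnemius ablation or sham surgery (GA 7 days, Sham-GA 7 days), with 3 arrays in each group.

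Soleus is a postural muscle that in an intact rat is made mostly of slow-twitch fibers. After transection above the lumbar cord its motor neurons stay connected but are rarely driven, and the muscle shrinks and takes on fast-twitch features. In a normally active fiber the nicotinic acetylcholine receptor is made almost only at the motor endplate, because electrical activity shuts down the receptor subunit genes elsewhere along the fiber through the myogenic factors, and denervation or paralysis lifts this block. Long-term stimulation is also known to act on calcineurin signaling, on mitochondrial genes through PGC-1, and on the choice of myosin heavy chain.

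No gene passed the test after 7 days of ES. In limma, with Benjamini-Hochberg adjustment over all 14456 genes, 0 genes (0%) reached an adjusted p under 0.05 with a change of at least 1.5 fold, and the lowest adjusted p was 0.9996. At an unadjusted p under 0.05 there were 410 genes (2.84%), of which 276 (1.91%) were higher and 134 (0.927%) lower in SCI-ES 7 days. The analysis of variance that the methods of the study describe tests Sham-SCI, SCI and all ES groups together. The same p values thus serve every pair of groups, and only the fold minimum is specific to a pair. With at least 1.5 fold between SCI-ES 7 days and SCI it listed 25 genes at an unadjusted threshold, and 0 after adjustment. All differences between SCI-ES 7 days and SCI given below are therefore differences of means that did not pass the test, and higher and lower describe those means only.

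The precision of the comparison was set by 3 arrays per group. The SE of a gene used its spread within groups pooled over the 15 arrays of the SCI experiment, not over SCI-ES 7 days and SCI alone. The median SE of a log2 fold change was 0.144, and for 76.8% of genes the 95% interval lay within 1.5 fold in either direction, while for 94.8% it lay within 2 fold. The log2 fold changes, given throughout as SCI-ES 7 days minus SCI, ran from -2.52 for Chrna1 to 1.33 for Aqp4, with 90% of genes between -0.24 and 0.27. There were 39 genes (0.27%) at least 1.5 fold higher and 71 (0.491%) at least 1.5 fold lower. In 620 genes (4.29%) all 3 SCI-ES 7 days arrays lay above all 3 SCI arrays and in 475 (3.29%) they lay below, but in only 10 (0.0692%) and 15 (0.104%) genes did this go with a 1.5 fold difference.

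SCI replicate 2 stood apart from the other 5 arrays in most genes of at least 1.5 fold. It was the array farthest from the median of the 6 in 72 of the 110 such genes (65.5%), against 27.0% of all genes. SCI-ES 7 days replicate 2 was the farthest in 22 (20.0%), against 19.8% of all genes. Over all genes SCI-ES 7 days replicate 3 was the farthest in 22.8%. The 110 genes were picked by their difference in these same arrays, which favours an array with extreme values. Without SCI replicate 2 there were 62 genes of at least 1.5 fold, and 31 of the 110 still reached that size. Values without SCI replicate 2 are given beside many of the results below, and values without another array where that array moved the result. All 6 arrays carried skeletal muscle: Acta1, Des and Ckm, which encode skeletal actin, desmin and muscle creatine kinase, lay between 13.26 and 14.11. These 3 genes do not tell soleus from another skeletal muscle. Pairs of arrays correlated across genes between 0.9752, for SCI-ES 7 days replicates 2 and 3, and 0.9940, for SCI-ES 7 days replicate 1 and SCI replicate 3. The least alike pair thus lay within a group and the most alike pair between groups.

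**Figure D1:**
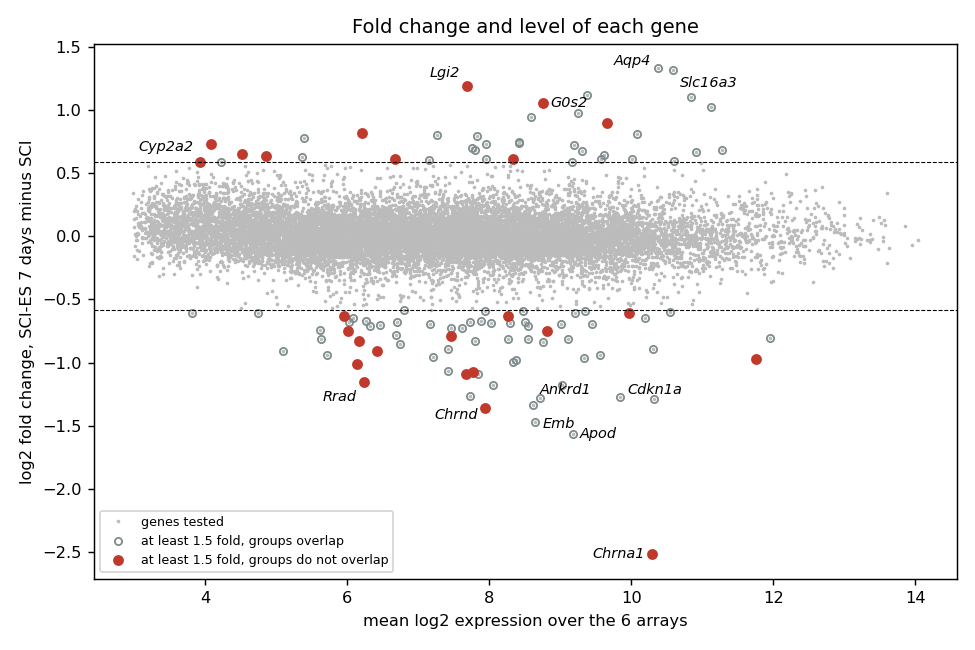
Log2 fold change (SCI-ES 7 days minus SCI, vertical axis) against mean log2 expression over the 6 arrays (horizontal axis) for the 14456 genes tested. Open circles are genes of at least 1.5 fold (dashed lines) whose groups overlap, filled circles those whose groups do not overlap, 10 above and 15 below, and no gene passed the test.

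The acetylcholine receptor subunit Chrna1 had the largest difference. Chrna1 encodes the alpha subunit, which binds acetylcholine in both the fetal and the adult receptor. It measured 9.78, 8.79 and 8.52 in SCI-ES 7 days replicates 1 to 3, against 10.66, 13.46 and 10.53 in SCI. Every SCI-ES 7 days array lay below every SCI array, and SCI replicate 2 stood well above the rest of its group. The means were 9.03 ± 0.667 in SCI-ES 7 days and 11.55 ± 1.66 in SCI (SD, n = 3 each). Chrna1 was 5.73 fold lower, the largest difference of any gene tested (log2 fold change -2.52, SE 0.72, 95% interval -4.07 to -0.97, limma, adjusted p = 0.9996). Without SCI replicate 2 it was still lower, at -1.56, and without each of the other arrays in turn it lay between -3.03 and -2.26.

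Chrnd, the delta subunit, measured 7.47, 7.41 and 6.90 in SCI-ES 7 days, against 7.93, 10.20 and 7.74 in SCI. Here too the groups did not overlap, but SCI replicates 1 and 3 were close to the highest stimulated array. The log2 fold change was -1.36 (SE 0.688, 95% interval -2.85 to 0.12) with all arrays and -0.57 without SCI replicate 2. Chrng, the gamma subunit of the fetal receptor, measured 7.02, 6.73 and 6.44 in SCI-ES 7 days, against 6.91, 8.92 and 7.23 in SCI, so that the groups overlapped, and its log2 fold change of -0.96 became -0.34 without SCI replicate 2. Chrne, the epsilon subunit that replaces gamma in the adult endplate, measured 7.69, 6.57 and 7.02 in SCI-ES 7 days, against 8.14, 8.21 and 7.11 in SCI. Its log2 fold change of -0.72 came with overlapping groups, and -0.53 remained without SCI replicate 2. Chrnb1, the beta subunit, had a log2 fold change of -0.31, and 0.15 without that array.

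The promoters of the subunits are shown because myogenic factors act on them through E-boxes, the letters CANNTG, given in capitals below. The lines hold the 100 bases before the start site of the genes whose values differed most, 5′ to 3′ on the strand of the gene, taken from RefSeq on GRCr8 at chr3:78877354-78877453 (minus strand), chr9:95310216-95310315 (plus strand) and chr9:95325884-95325983 (plus strand).
Chrna1: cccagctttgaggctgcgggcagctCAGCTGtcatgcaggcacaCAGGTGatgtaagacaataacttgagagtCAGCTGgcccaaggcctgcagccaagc
Chrnd: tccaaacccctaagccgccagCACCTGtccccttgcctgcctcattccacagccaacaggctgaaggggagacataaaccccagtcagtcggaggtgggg
Chrng: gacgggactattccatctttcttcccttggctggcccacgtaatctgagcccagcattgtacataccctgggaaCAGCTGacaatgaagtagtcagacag

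The motif reads the same on both strands, so 1 search covers both. Chrna1 holds 3 E-boxes in these bases and Chrnd and Chrng hold 1 each. Over the 250 bases before the start site all 5 subunit genes hold CANNTG, as do 65.5% of 33469 rat promoters searched in the same way. The form CAGCTG is held by 4 of the 5, against 12% of all promoters. Chrnd, at a log2 fold change of -1.36, is the 1 without it, and Chrnb1, at -0.31, holds it. Chrnb1, whose difference was small, holds 3 E-boxes there, as Chrna1 and Chrng do, and Chrnd and Chrne hold 1. A match of letters is a description and not a binding site.

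The list of acetylcholine receptor and endplate genes held 24 genes tested, of which 0 were called. In SCI-ES 7 days 18 were lower and 6 higher, with a median log2 fold change of -0.22, against 0.01 over all genes tested. The groups did not overlap in 3 of the 24, all lower, where 3.29% of all genes were lower in that way. Without SCI replicate 2 the median was -0.16, with 19 lower and 5 higher. The kinase Musk and its co-receptor Lrp4, through which nerve-derived agrin assembles the endplate, had log2 fold changes of -0.83 and -0.40 with all arrays, and of -0.05 and 0.04 without SCI replicate 2. Rapsn, the scaffold that clusters receptors, and Dok7, the adaptor of Musk, were at -0.18 and 0.01, agrin itself (Agrn) at -0.12, and Ache, which breaks down acetylcholine, at 0.17, and at -0.37 without SCI replicate 2. In this list only Chrna1 reached an unadjusted p under 0.05.

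**Figure D2:**
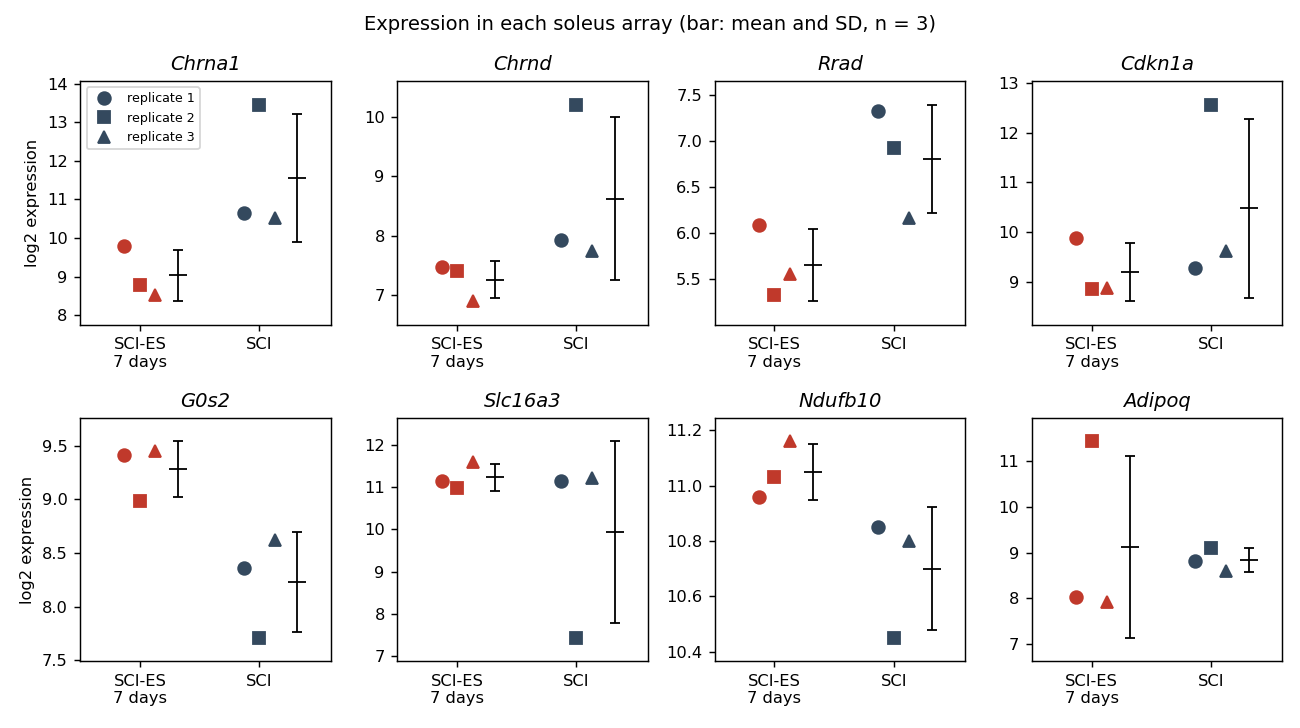
Log2 expression (vertical axes) of 8 genes in each of the 3 SCI-ES 7 days arrays (red, left) and the 3 SCI arrays (blue, right), with marker shape for the replicate number and a bar for mean and SD. The groups do not overlap for Chrna1, Chrnd, Rrad, G0s2 and Ndufb10, SCI replicate 2 stands apart for Chrna1, Chrnd, Cdkn1a and Slc16a3, and SCI-ES 7 days replicate 2 stands apart for Adipoq.

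G0s2 was higher in SCI-ES 7 days with separated groups. It encodes an inhibitor of adipose triglyceride lipase, the enzyme that starts the breakdown of stored fat. It measured 9.41, 8.98 and 9.45 in SCI-ES 7 days, against 8.36, 7.71 and 8.62 in SCI. The log2 fold change was 1.05 (SE 0.278, 95% interval 0.46 to 1.65, 2.08 fold, limma, adjusted p = 0.9996) with all arrays. It was 0.80 without SCI replicate 2, and between 0.97 and 1.25 without each of the other arrays. G0s2 was named because its groups were separated, at 1.5 fold or more, in these same arrays. In Sham-SCI soleus G0s2 measured 9.34, 9.57 and 9.09, and the difference of SCI-ES 7 days from Sham-SCI was -0.05 while that of SCI was -1.10 (limma, adjusted p = 0.966 for SCI-ES 7 days and adjusted p = 0.0958 for SCI). Both of these comparisons share arrays with the comparison of SCI-ES 7 days and SCI.

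Rrad was lower after 7 days of ES and depended little on SCI replicate 2. Rrad is a small GTPase that binds the beta subunits of L-type calcium channels and restrains their current. It measured 6.09, 5.33 and 5.55 in SCI-ES 7 days, against 7.33, 6.93 and 6.17 in SCI. The groups did not overlap, with SCI replicate 3 close to the highest stimulated array. The log2 fold change was -1.16 (SE 0.471, 95% interval -2.17 to -0.14) and -1.09 without SCI replicate 2. Against Sham-SCI, where Rrad measured 10.00, 8.65 and 9.36, it fell by 3.69 on the log2 scale in SCI-ES 7 days (adjusted p = 0.00685) and by 2.53 in SCI (adjusted p = 0.0429). In the list of excitability and ion channel genes Rrad was the only one of 17 at an unadjusted p under 0.05, and the median of the list was 0.01.

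Genes that denervation is known to raise were mostly lower in SCI-ES 7 days, and most of this difference lay in SCI replicate 2. Of 19 denervation and atrophy genes tested, 18 were lower and 1 higher, 0 were called, and the median log2 fold change was -0.34. SCI replicate 2 was the highest of the 6 arrays in 13 of them, and SCI-ES 7 days replicate 2 the lowest in 12. The mean level of the list, relative to its mean over the 6 arrays, was -0.15, -0.33 and -0.17 in SCI-ES 7 days, against -0.05, 0.79 and -0.08 in SCI. Without SCI replicate 2 the median was -0.15, with 17 lower and 2 higher. Without SCI-ES 7 days replicate 2 it was -0.23, with 16 lower and 3 higher.

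Among these genes Ncam1, an adhesion molecule that covers the whole surface of a denervated fiber, measured 8.96, 8.36 and 8.01 in SCI-ES 7 days, against 8.79, 10.90 and 9.15 in SCI, a log2 fold change of -1.17, and -0.53 without SCI replicate 2. Runx1, a transcription factor that limits wasting after denervation in mice, was at -0.96 with all arrays and -0.17 without that array. Gadd45a, a stress protein that takes part in denervation atrophy, was at -0.68 and -0.06, and Myog, which encodes the myogenic factor myogenin, at -0.57 and 0.03. The 2 muscle ubiquitin ligases of atrophy, Trim63 (MuRF1) and Fbxo32 (atrogin-1), had log2 fold changes of -0.15 (95% interval -0.68 to 0.37) and -0.28 (-0.68 to 0.13), so that for both the interval left out a fall of more than 2 fold. Without SCI-ES 7 days replicate 2 they were at 0.13 and -0.13.

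The cell cycle inhibitor Cdkn1a (p21), itself a member of the denervation and atrophy list, showed the same pattern. It measured 9.89, 8.87 and 8.88 in SCI-ES 7 days, against 9.28, 12.56 and 9.62 in SCI, and its log2 fold change of -1.27 became -0.23 without SCI replicate 2. Over the 22 cell cycle inhibitors and p53 targets the median was -0.07 with and without that array. In the list of satellite cells and regeneration, 13 of 16 genes were lower with a median of -0.17, SCI replicate 2 was the highest array in 11 and SCI-ES 7 days replicate 2 the lowest in 12, and the median was -0.02 without SCI replicate 2 and -0.03 without SCI-ES 7 days replicate 2. Myod1, the master regulator of the muscle lineage, was at -0.38 with all arrays and 0.17 without SCI replicate 2, and Mymk, which makes myoblasts fuse, at -0.86 and -0.22.

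Developmental sarcomere genes were lower as a group, with all 8 tested below 0 and a median log2 fold change of -0.39, and -0.17 without SCI replicate 2. Actc1, the cardiac actin that skeletal muscle makes before birth and in regeneration, measured 10.54, 8.78 and 9.70 in SCI-ES 7 days, against 10.21, 11.79 and 10.88 in SCI. The groups overlapped through SCI-ES 7 days replicate 1, and the log2 fold change was -1.29 (95% interval -2.38 to -0.20), and -0.87 without SCI replicate 2. Myh3, embryonic myosin, was at -0.94 and at -0.20 without that array. Ankrd1, a titin-binding protein that responds to load and injury, measured 9.18, 7.60 and 7.05 in SCI-ES 7 days, against 7.84, 10.93 and 9.08 in SCI, with overlapping groups, a log2 fold change of -1.34, and -0.52 without SCI replicate 2.

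Genes of fiber type had medians near 0. The slow myosin Myh7 measured 12.76, 12.68 and 12.38 in SCI-ES 7 days, against 12.75, 12.61 and 12.33 in SCI, a log2 fold change of 0.04. Its 95% interval, -1.03 to 1.12, still held a 2 fold difference in either direction. The fast myosins Myh2 (type IIa), Myh1 (type IIx) and Myh4 (type IIb) were at -0.19, 0.13 and -0.31, and Myh4 at 0.39 without SCI-ES 7 days replicate 2. Slow-twitch genes had a median of -0.13 with 4 of 15 above 0, and fast-twitch genes a median of 0.06 with 8 of 14 above 0, where 51.9% of all genes were above 0. Without SCI replicate 2 both turned round, with a median of 0.02 and 9 of 15 above 0 for slow-twitch genes and a median of -0.07 and 0 of 14 above 0 for fast-twitch genes. The slow troponins Tnni1 and Tnnc1 were at -0.35 and -0.17, and at -0.19 and 0.02 without that array. Pvalb, the calcium buffer of fast fibers, was one of the separated genes: it measured 12.07, 9.96 and 11.78 in SCI-ES 7 days, against 12.42, 12.23 and 12.09 in SCI, and its log2 fold change of -0.97 became -0.32 without SCI-ES 7 days replicate 2.

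The calcineurin pathway, which reads sustained activity of slow motor units, had values near 0. The study states that tissue was taken about a day after the last session of ES. It adds that a brief rise of a transcript of Rcan1 could have been missed. Rcan1, an inhibitor of calcineurin whose own gene responds to the pathway, measured 8.87, 8.26 and 8.43 in SCI-ES 7 days, against 8.40, 9.19 and 8.69 in SCI, a log2 fold change of -0.24 (95% interval -0.89 to 0.41). Rcan2 was at -0.09, and the catalytic subunit Ppp3ca at -0.28 with separated groups. Over 15 genes of the list the median was -0.08, with 4 above 0. The calcium store protein Casq2 was at 0.28, and the calcium cycling list of 27 genes had a median of -0.06. Ppargc1a and Ppargc1b, the PGC-1 coactivators, were at 0.15 (95% interval -0.61 to 0.91) and 0.09 (-0.61 to 0.78), and the 20 genes of their network had a median of -0.03.

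Genes of energy metabolism were slightly higher in SCI-ES 7 days in nearly every member, by an amount that SCI replicate 2 carried. Of 56 oxidative phosphorylation genes 53 (94.6%) were above 0, against 51.9% of all genes, with a median log2 fold change of 0.18. SCI replicate 2 was the lowest of the 6 arrays in 51 of the 56 and SCI-ES 7 days replicate 3 the highest in 47. The list level was 0.03, 0.01 and 0.22 in SCI-ES 7 days, against 0.11, -0.40 and 0.04 in SCI, and without SCI replicate 2 the median was 0.03 with 32 above 0 and 24 below. Ndufb10, a subunit of complex I, was 1 of the 4 (7.14%) whose groups did not overlap, all higher, where 4.29% of all genes were higher in that way. It measured 10.96, 11.03 and 11.16 in SCI-ES 7 days, against 10.85, 10.45 and 10.80 in SCI (log2 fold change 0.35, and 0.22 without SCI replicate 2).

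The citric acid cycle followed with 18 of 21 genes above 0 and a median of 0.22, which was 0.03 without SCI replicate 2, and glycolysis and glycogen with 28 of 31 above 0 and a median of 0.21, which was -0.01 without it. The mitochondrial ribosome had 56 of 65 genes above 0 and a median of 0.12, and 0.05 without that array. SCI-ES 7 days replicate 3 was the highest array in 53 of the 65, and without it the median was 0.01 with 34 above 0 and 31 below. The largest single differences of this kind rested on SCI replicate 2 alone. Slc16a3, the lactate exporter of fast fibers, measured 11.15, 10.98 and 11.59 in SCI-ES 7 days, against 11.14, 7.43 and 11.21 in SCI, and its log2 fold change of 1.31 became 0.07 without that array. Aqp4, the water channel of the fast fiber membrane and the gene with the highest log2 fold change, measured 11.08, 10.63 and 11.44 in SCI-ES 7 days, against 11.27, 6.71 and 11.17 in SCI, and its 1.33 became -0.18. Gpd1, which links glycolysis to lipid synthesis, and Mybpc2, a myosin-binding protein of fast fibers, were at 1.02 and 1.11 with all arrays and at -0.09 and -0.18 without SCI replicate 2. SCI replicate 2 was thus low in fast-fiber and metabolic genes and high in denervation genes. Its part in the list medians beyond the values without it was not tested.

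Fatty acid uptake and oxidation had a median of 0.04, with 17 of 31 genes above 0. Ucp3, a mitochondrial carrier that follows fatty acid supply, measured 10.63, 9.81 and 10.31 in SCI-ES 7 days, against 11.21, 10.72 and 10.62 in SCI, a log2 fold change of -0.60 (95% interval -1.21 to 0.01), and -0.66 without SCI replicate 2. The groups overlapped only through SCI-ES 7 days replicate 1 and SCI replicate 3. Pdk4, which holds back glucose oxidation, was at -0.26.

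**Figure D3:**
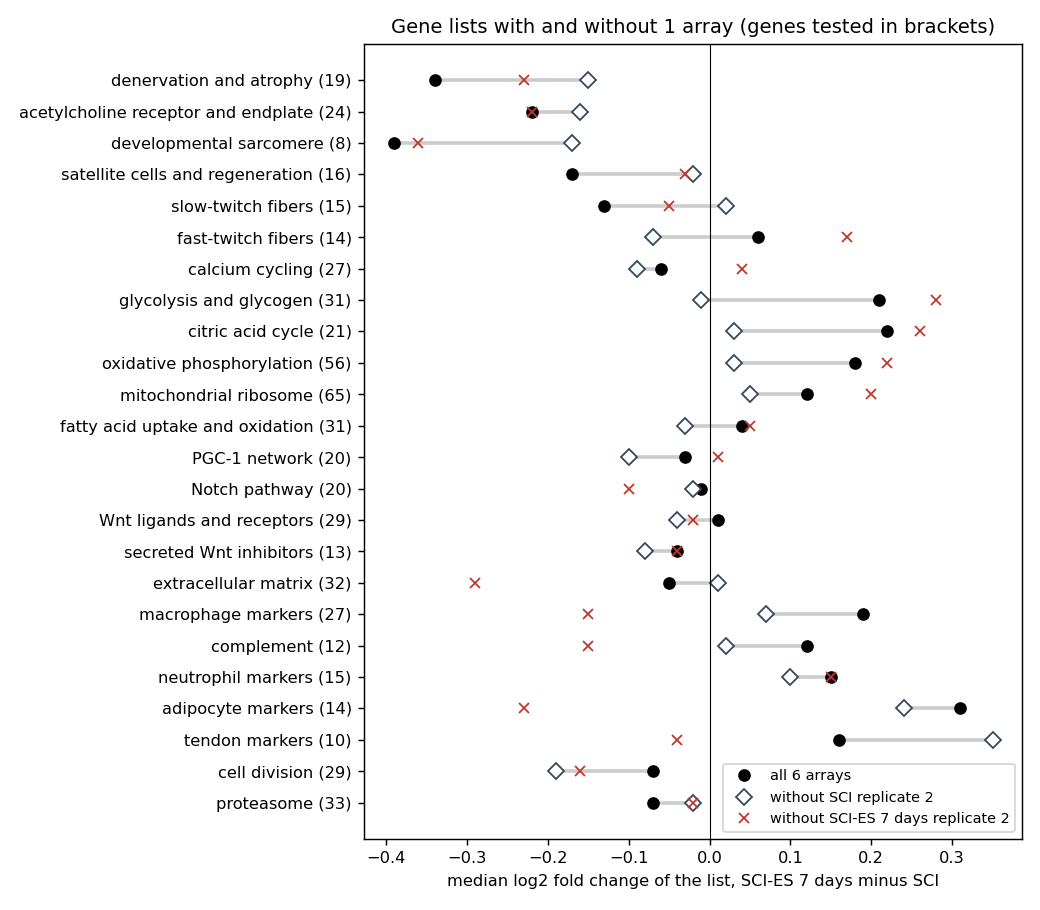
Median log2 fold change (SCI-ES 7 days minus SCI, horizontal axis) of 24 gene lists with all 6 arrays (black dots), without SCI replicate 2 (diamonds) and without SCI-ES 7 days replicate 2 (crosses). Most medians of muscle and metabolic lists lie nearer 0 without SCI replicate 2, and those of macrophage, complement and adipocyte genes change sign without SCI-ES 7 days replicate 2.

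Markers of cells between the fibers varied widely among arrays of 1 group. Adipocyte markers had a median of 0.31, and the list level was -0.40, 1.18 and -0.37 in SCI-ES 7 days, against -0.08, -0.16 and -0.16 in SCI. Adipoq, the adipocyte hormone adiponectin, measured 8.04, 11.43 and 7.93 in SCI-ES 7 days, against 8.81, 9.11 and 8.60 in SCI. Plin1, the coat protein of fat droplets, measured 6.60, 9.01 and 6.72 in SCI-ES 7 days, against 7.02, 7.08 and 6.82 in SCI. Only SCI-ES 7 days replicate 2 was high, and without it the median of the list was -0.23 and Adipoq was at -0.85. Of the 14 markers tested 11 were highest in that array. Since RNA was taken from whole muscle, more cells of a type and more RNA per cell cannot be told apart.

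The same array was the highest in 24 of 27 macrophage markers and 24 of 32 extracellular matrix genes, while SCI-ES 7 days replicate 3 was the lowest in 16 and 26. The macrophage list had a median of 0.19, which was -0.15 without SCI-ES 7 days replicate 2 and 0.54 without SCI-ES 7 days replicate 3. The matrix list had a median of -0.05, which was -0.29 without SCI-ES 7 days replicate 2, with 4 of 32 above 0, and 0.36 without SCI-ES 7 days replicate 3, with 31 of 32 above 0. Col1a1, the main chain of type I collagen, measured 12.25, 12.79 and 10.18 in SCI-ES 7 days, against 11.70, 12.16 and 12.10 in SCI. The stimulated arrays thus lay on both sides of the SCI arrays. Complement genes had a median of 0.12, which was -0.15 without SCI-ES 7 days replicate 2 and 0.51 without SCI-ES 7 days replicate 3. Tendon markers were low in SCI replicate 1, with a list level of -0.24, 0.77 and -0.26 in SCI-ES 7 days, against -1.43, 0.60 and 0.56 in SCI, and their median of 0.16 became -0.46 without SCI replicate 1. Fmod, a small proteoglycan of tendon, measured 8.70, 10.70 and 9.28 in SCI-ES 7 days, against 6.38, 9.73 and 10.40 in SCI. Neutrophil markers were above 0 in all 15 genes tested with a median of 0.15. Without SCI-ES 7 days replicate 3 this was 9 of 15 with a median of 0.08, and without SCI replicate 2 it was 10 of 15 with a median of 0.10. They were mostly dim, with 1 gene, Cxcr2, at an unadjusted p under 0.05 (log2 fold change 0.49 at levels of 4.60, 5.17 and 4.68 in SCI-ES 7 days, against 4.28, 4.32 and 4.39 in SCI). The part of these cell types in the differences of other genes was not tested.

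**Figure D4:**
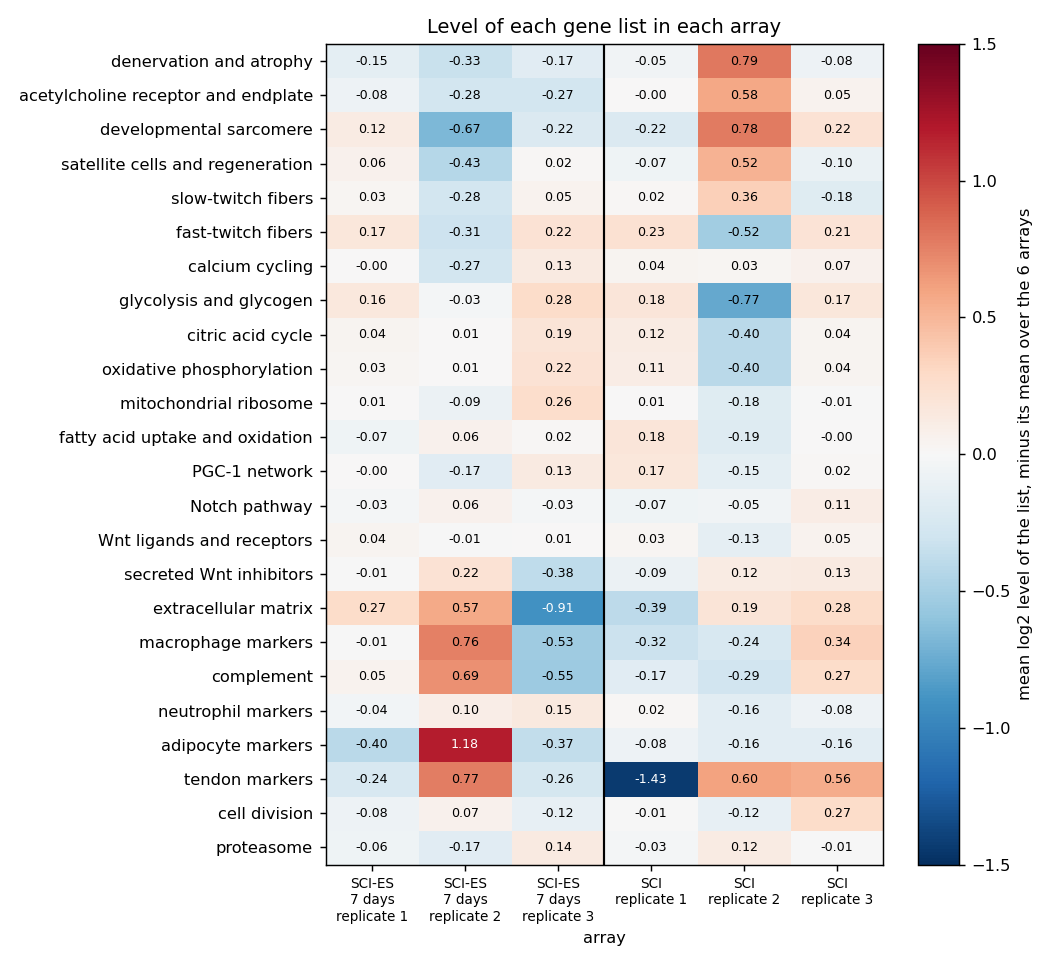
Mean log2 level of 24 gene lists (rows) in the 3 SCI-ES 7 days arrays (left) and the 3 SCI arrays (right), relative to the mean of the list over the 6 arrays, with red for above and blue for below. SCI replicate 2 is high for denervation genes (0.79) and low for glycolysis (-0.77), and SCI-ES 7 days replicate 2 is high for adipocyte markers (1.18).

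Wnt and Notch signaling, which guide satellite cells and fiber remodeling, had list medians near 0. The 29 Wnt ligands and receptors tested were centred on 0.01 with 16 above 0, secreted Wnt inhibitors a median of -0.04 with 4 of 13 above 0, and the Notch pathway a median of -0.01 with 9 of 20 above 0. The 10 Wnt target genes had a median of -0.03 with 4 above 0, and in 2 of them (20.0%), Lef1 and Tcf7, the SCI-ES 7 days arrays all lay below the SCI arrays, where 3.29% of all genes did. Both are transcription factors of the pathway, and Tcf7, at -0.22, is named after its values were seen. Sfrp1 and Sfrp2, secreted Wnt antagonists, were at -0.23 and -0.41, and at 0.22 and 0.11 without SCI-ES 7 days replicate 3. Sfrp2 measured 8.96, 10.71 and 8.27 in SCI-ES 7 days, against 9.30, 10.13 and 9.74 in SCI, a wider range in the stimulated group. Sostdc1, which blocks both Wnt and BMP signals, was the only one of these genes at an unadjusted p under 0.05 (log2 fold change -0.57, at 5.67, 5.21 and 5.64 in SCI-ES 7 days, against 5.45, 6.59 and 6.17 in SCI), and it was at -0.30 without SCI replicate 2. The receptor Fzd4 was at 0.69, and at 0.14 without SCI replicate 2. Lef1 was at -0.16 and the co-receptor Lrp5 at 0.08, and the Notch targets Hey1 and Hes1 were at -0.09 and 0.15.

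Outside the muscle pathways some of the named genes also had groups that did not overlap, and none passed the test. Of all genes, 4.29% were higher in that way and 3.29% lower. Slitrk2, a membrane protein of synapses, measured 5.0, 4.72 and 4.96 in SCI-ES 7 days, against 5.33, 5.33 and 5.67 in SCI (log2 fold change -0.55, 95% interval -0.90 to -0.21). Klf10, a transcription factor induced by TGF-beta, measured 9.16, 8.89 and 9.44 in SCI-ES 7 days, against 8.66, 8.84 and 8.78 in SCI (log2 fold change 0.41, 95% interval 0.06 to 0.76). Neither depended on SCI replicate 2, without which they were at -0.61 and 0.45. Fndc3c1 and the lysine methyltransferase gene Mettl21c were lower with separated groups, at -1.01 and -1.07, and at -0.75 and -0.69 without SCI replicate 2. Cntn2, Vash2, Cdc25a and Chrna4 also had separated groups, at -1.09, -0.75, -0.63 and -0.75, but the size of the difference rested on SCI replicate 2, without which they were at -0.40, -0.34, -0.24 and -0.24. Vash2, a regulator of vessel formation, measured 8.49, 8.26 and 8.54 in SCI-ES 7 days, against 8.69, 10.00 and 8.85 in SCI.

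The lowest unadjusted p values belonged to dim genes. Cyp2a2, a liver cytochrome, had the lowest among genes of at least 1.5 fold (limma, adjusted p = 0.9996), with levels of 4.23, 4.12 and 4.32 in SCI-ES 7 days, against 3.47, 3.73 and 3.70 in SCI. The odorant receptor Or4b1c followed with a log2 fold change of 0.64. Genes with a mean level under 5 made up 16.5% of all genes but 178 of the 276 (64.5%) that were higher at an unadjusted p under 0.05, and 13 of the 134 (9.7%) that were lower. Of 1067 olfactory receptor genes, which soleus is not known to use and which were listed together after their values were seen, 869 (81.4%) were above 0 with a median of 0.13. Of the 276 genes, 148 were olfactory receptors. Among the 878 genes with a mean level from 3 to 4, 72.3% were above 0, against 46.8% of the 1330 genes above 10. Relative to the mean of the 15 arrays of the SCI experiment, genes at levels 3 to 4 were at 0.027, 0.04 and 0.064 in SCI-ES 7 days. They were at 0.025, -0.094 and -0.056 in SCI and at -0.011, 0.103 and 0.108 in Sham-SCI. Dim rows as a class were thus slightly higher in SCI-ES 7 days than in SCI, but not than in Sham-SCI replicates 2 and 3. The cause was not tested.

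SCI-ES 7 days and SCI-ES 1 day can be compared without the SCI arrays, but the 7 day animals were also later after surgery. Again 0 genes (0%) were called in limma with Benjamini-Hochberg adjustment, but 1754 (12.1%) had an unadjusted p under 0.05 and the lowest adjusted p was 0.244, shared by many genes. The methods' analysis of variance, whose p is that of all groups together, listed 180 genes unadjusted and 1 after adjustment. Leaving out SCI-ES 1 day replicate 2 gave 99 called genes, 24 higher and 75 lower after 7 days, and leaving out any other array gave 0. Without SCI-ES 1 day replicate 1, 956 genes had an unadjusted p under 0.05. Relative to the mean of the 15 arrays, denervation and atrophy genes were at 1.133, 0.162 and 0.381 in SCI-ES 1 day replicates 1 to 3. Replicate 1 was also the highest of its group for Chrna1, Chrnd, Ankrd1 and Rrad, whose values are given below.

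Among endplate genes Chrna1 and Chrnd differed most. The comparisons with 1 and 3 days of ES use the same SCI-ES 7 days arrays as the comparison with SCI. They are therefore no separate evidence for genes already named from those arrays. Chrna1 measured 9.78, 8.79 and 8.52 after 7 days, against 13.39, 11.76 and 11.78 after 1 day (log2 fold change -3.28, SE 0.72, adjusted p = 0.244). Chrnd measured 7.47, 7.41 and 6.90 after 7 days, against 11.40, 9.75 and 9.74 after 1 day (log2 fold change -3.04). In both the groups did not overlap. Ankrd1 differed by -3.99, at 12.94, 10.34 and 12.51 after 1 day, and Gadd45a by -2.33. Rrad, at 8.82, 7.44 and 7.68 after 1 day, differed by -2.32. Rcan1, at 9.75, 9.62 and 9.91 after 1 day, differed by -1.24, and S100a9, a neutrophil calcium-binding protein, by -1.55. G0s2, at 7.43, 8.01 and 8.55 after 1 day, ran the other way with a difference of 1.29, as did Klf10 with 0.79. The adjusted p in limma was 0.244 for each of these genes.

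Set side by side, the means of Chrna1 were 11.55 in SCI and 12.31, 10.74 and 9.03 after 1, 3 and 7 days of ES, and those of Rrad 6.81, 7.98, 6.57 and 5.65. For G0s2 they were 8.23 in SCI and 8.00, 8.27 and 9.28 after 1, 3 and 7 days, so that the 7 day mean was the highest. Rcan1 was at 8.76 in SCI and at 9.76, 9.05 and 8.52 after 1, 3 and 7 days. Between SCI-ES 7 days and SCI-ES 3 days 0 genes (0%) were called in limma, 537 (3.71%) had an unadjusted p under 0.05, the lowest adjusted p was 1, and the analysis of variance listed 52 genes unadjusted and 0 after adjustment. In that comparison G0s2 differed by 1.01, Chrna1 by -1.70 and Klf10 by 0.47. Against SCI, 0 genes were called after 1 day and 0 after 3 days in limma, with 1053 (7.28%) and 444 (3.07%) genes at an unadjusted p under 0.05.

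**Figure D5:**
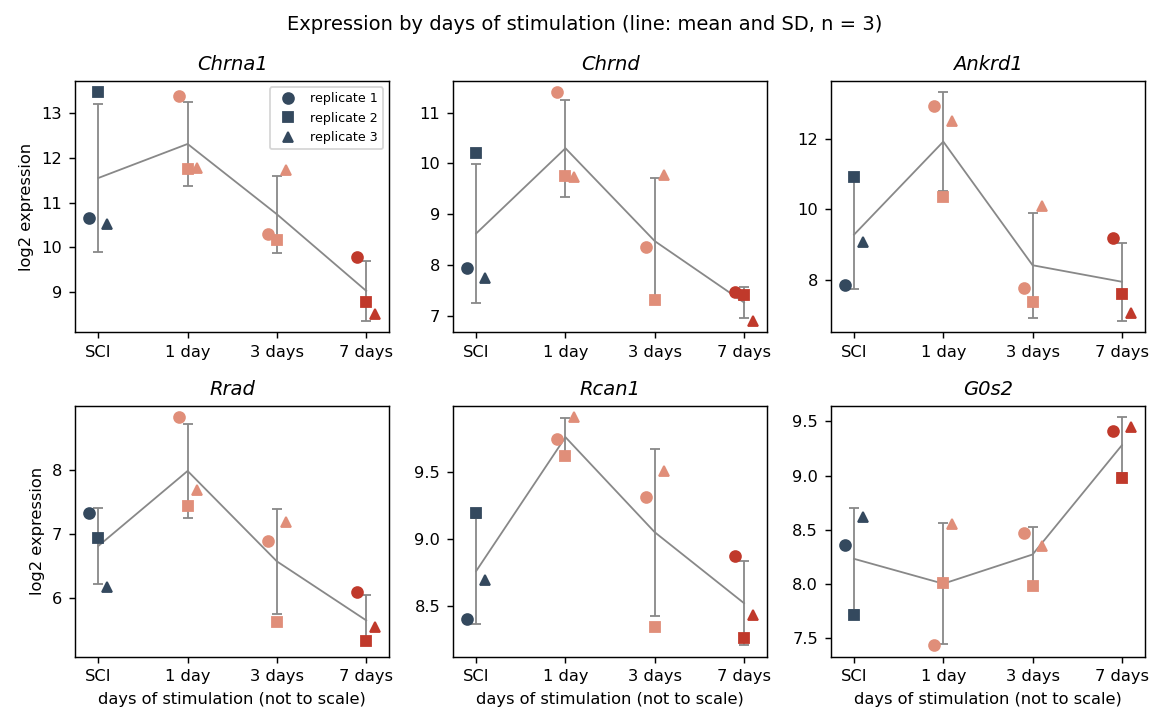
Log2 expression (vertical axes) of 6 genes in SCI and after 1, 3 and 7 days of ES (horizontal axis, not to scale), with 1 point per array, marker shape for the replicate number, and a line through the means with SD. Chrna1, Chrnd, Ankrd1, Rrad and Rcan1 have their highest mean after 1 day and their lowest after 7 days, and G0s2 has its highest mean after 7 days.

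The effect of 7 days of ES on paralysed soleus was also tested against the effect of 7 days of overload on innervated soleus. The GA 7 days and Sham-GA 7 days arrays share none with the SCI experiment. In a limma fit of all 33 arrays, 0 of 14453 genes (0%) were called for the difference between the effects, with 454 (3.14%) at an unadjusted p under 0.05 and a lowest adjusted p of 0.1267. Across 14446 genes the 2 sets of log2 fold changes correlated at -0.05, a description over genes, which are not independent replicates. Chrna1 differed by -2.52 with ES and -0.70 with GA, Ankrd1 by -1.34 with ES and 1.59 with GA, and Ncam1 by -1.17 with ES and 0.44 with GA. G0s2 differed by 1.05 with ES and -0.57 with GA. The differences between the effects were -1.82 (SE 0.847) for Chrna1, -2.93 (SE 1.27) for Ankrd1, -1.61 (SE 0.697) for Ncam1 and 1.63 (SE 0.523) for G0s2, each with an adjusted p of 0.999.

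Against Sham-SCI, a group that had neither transection nor tendon cut, 101 genes (0.699%) were called in SCI-ES 7 days and 58 (0.401%) in SCI. Both counts use the same Sham-SCI arrays. Rcan1 fell by 2.10 in SCI-ES 7 days (adjusted p = 0.0122) and by 1.86 in SCI (adjusted p = 0.0239), and Mettl21c, which measured 11.97, 11.18 and 12.36 in Sham-SCI, fell by 4.61 in SCI-ES 7 days (adjusted p = 0.0221). In SCI Mettl21c differed by -3.54 (adjusted p = 0.0698). Klf10 rose by 0.99 in SCI-ES 7 days (adjusted p = 0.0221) and differed by 0.58 in SCI (adjusted p = 0.126). Chrna1 differed from Sham-SCI by -1.97 in SCI-ES 7 days and by 0.55 in SCI, neither past the test (limma, adjusted p = 0.217 and adjusted p = 0.787). These tests against Sham-SCI are of each group on its own, and the difference between the groups is the comparison of SCI-ES 7 days with SCI given first, in which no gene passed.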

How the data were processed

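RNA from soleus was hybridized to Affymetrix rat arrays, 1 per animal. The deposited values are log2 expression that the authors made with RMA in the oligo package (background subtraction, quantile normalization and median polish, versions not given in the sources used here), 1 row per transcript cluster. Array medians lay between 6.45 and 6.54. An array gives no counts, so the number of arrays limits the precision. Rows were named through the platform annotation: 15310 rows had 1 symbol, 323 several and 13581 none, and the last 2 kinds were not used. Where a gene had several rows (527 genes) its brightest row on average stood for it, and genes with a mean under 3 over the 15 arrays of the SCI experiment were left out. Groups were taken from the sample labels. limma 3.58.1 in R 4.3.3 fitted 1 mean per group over the 15 arrays (lmFit, eBayes), and a gene was called at a Benjamini-Hochberg adjusted p under 0.05 and at least 1.5 fold. The difference between ES and GA used all 33 arrays. The fit was tested on simulated data with known changes. It called 32% of 50 changes of 1.5 fold and 72% of 50 changes of 2 fold, with 7 false calls. Changes of 4 and 8 fold were planted in the same data, which makes the adjusted threshold easier to pass for the smaller ones. The noise was drawn for each gene on its own, so shifts that many genes of 1 array share, as in SCI replicate 2, were absent. These shares check the fit and do not give the share of real changes that the comparison of SCI-ES 7 days and SCI would find. Nothing in the labels says that same-numbered animals of different groups were paired.

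Genes were named by a rule: in each direction 12 genes, the called ones first and then those of at least 1.5 fold with separated groups by unadjusted p, the highest and lowest member of each of 60 gene lists, and the ES genes that the study names. Other named genes were chosen after their values were seen, as was 1 added list (all olfactory receptors). The comparison, the gene lists and the tests were chosen with earlier results of these data known. Lists are described by counts and medians, with no test, and some genes are in more than 1 list. The alternatives were other filters, normalizations, array sets, priors and weights, a replicate block, the methods' analysis of variance, and leaving out each array in turn. The description deposited with the series gives 1, 2 and 7 days and ablation on both sides, where the sample labels and the methods give 1, 3 and 7 days, with surgery of the left hindlimb. The labels were followed.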

Additional observations from a re-analysis of the deposited data

How the results depend on the processing

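The count of 0 called genes between SCI-ES 7 days and SCI was the same under each other setting tried, leave-one-out settings included, except for array weights, which called 1 gene (Or4b1c, higher), and the methods' analysis of variance at an unadjusted threshold, which listed 25 genes (4 higher, 21 lower). Of those 25, 11 had separated groups and 6 were still at least 1.5 fold without SCI replicate 2. With the replicate number as a block 0 genes were called in each of the 4 comparisons. Deviations of same-numbered SCI-ES 7 days and SCI arrays correlated at -0.082, 0.062 and -0.328, and in 0 of 3 was the own number the best match, so the numbers were not read as pairs. Between 7 days and 1 day, array weights called 273 genes, 1 fit of all 33 arrays 13, the analysis of variance 180 unadjusted and 1 after Benjamini-Hochberg adjustment (an alternative added after seeing the data), and leaving out 1 array gave 0 to 99, with 99 without SCI-ES 1 day replicate 2. Between 7 and 3 days array weights called 221 and the analysis of variance 52. For ES against GA array weights called 22, and leaving out 1 array gave 0 to 1, with 1 without SCI replicate 1. In 1 of the 4 array weight fits the estimate did not reach its tolerance, and the cause of these counts was not tested.

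Of 211 named genes, 32 had the other sign without SCI replicate 2, 38 with array weights, 4 after a second quantile normalization and 7 to 21 without each other array. With 3 arrays a group the median 95% interval of a gene reached 0.31 on either side before any adjustment over genes.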
